A study of Mus musculus with 16 samples.

Results

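Collagens are the most abundant proteins of the extracellular matrix. Each collagen molecule is a triple helix of alpha chains, and each alpha chain has its own gene, named by the collagen type and the chain number. The fibrillar collagens form the fibrils of connective tissue, type IV forms the sheet-like network of basement membranes, type VI forms beaded filaments at the cell surface, and the FACIT collagens (fibril-associated collagens with interrupted triple helices) attach to the surface of fibrils. Embryonic stem cells (ESCs) and the endoderm that first arises from them lay down a basement membrane rich in type IV collagen and laminin.

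The genes described here were all rows of the deposited RNA-seq table whose symbol was Col, a number, the letter a and a number, which gave 43 of the 26127 genes. Transcripts were measured in mouse ESCs of 3 genotypes, whose background strain is E14 in the labels and C57BL/6 in the study's methods for the Dnmt1 line. There were 8 Wildtype libraries (WT, named as controls for both Dicer and Dnmt1), 4 Dnmt1-/- libraries (Dnmt1 KO, control for Dicer) and 4 Dicer/Dnmt1 -/- libraries (Dicer/Dnmt1 KO, the double knockout), and none of the groups was given a treatment or a time in the labels. The study's methods describe loss of Dnmt1 through a tamoxifen-activated Cre, removal of Dicer from such cells by CRISPR and growth in serum with or without feeder cells, and the labels do not say which libraries had feeders. DNMT1 copies CpG methylation onto new DNA strands, and DICER cuts microRNA precursors into mature microRNAs. Libraries carried a number and a letter (1A, 1B, 2A and so on). Both letters of a number were closer to each other than to other numbers in most cases, so calls are also given after A and B had been averaged. The correlation within a number, estimated over all tested genes, was 0.67. Unless averaging or this correlation is named, p-values below take the libraries as independent and may be too small.

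Libraries held 31.5 to 52.5 M reads, of which 13.9 to 25.4 M lay in genes, and 3 reads in a library stood for 0.0571 to 0.0954 RPM (reads per M mapped reads). Dnmt1 itself was at 5.55 to 7.66 log2 RPM in WT, at 4.17 to 4.63 in Dnmt1 KO and at 4.49 to 4.64 in Dicer/Dnmt1 KO. Dicer1 was at 4.56 to 5.68 in WT, 5.28 to 5.68 in Dnmt1 KO and 3.68 to 4.06 in the double knockout. The lowest WT values of Dnmt1 came from number 4, and the collagen calls against WT were 14 higher and 5 lower for Dnmt1 KO and 17 higher and 3 lower for Dicer/Dnmt1 KO both with and without number 4. All 10 listed ESC markers were measured above the filter, and their summed level was 1855 to 3389 RPM over the 16 libraries. Against WT, 3 of them were called lower in Dnmt1 KO, and 1 higher and 2 lower in the double knockout. Of all tested genes, 23.5% were called higher and 17.5% lower in Dnmt1 KO. In the double knockout these shares were 31.9% and 30.1%.

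DICER makes microRNAs, and miR-29 is the microRNA family best known for silencing collagen genes. Its mature sequences and the places in collagen transcripts that could pair with them were therefore looked up. Whether miR-29 acts on collagen genes in these cells was not tested. In the mature sequences (RefSeq, GRCm38.p6, 5′ to 3′) the capitals mark the seed, bases 2 to 8, which is the same in all 3.
miR-29a-3p: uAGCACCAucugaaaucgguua
miR-29b-3p: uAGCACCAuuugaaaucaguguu
miR-29c-3p: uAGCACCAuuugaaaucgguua

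A perfect match to this seed reads TGGTGCT, and it was searched on the transcript strand of the annotated 3′ untranslated region (UTR) of the longest coding transcript of each gene. It was present in 24 of the 43 collagen genes (55.8%), against 11.8% of 19900 genes with an annotated 3′ UTR. The collagen genes held 0.676 matches per kb of 3′ UTR and all genes held 0.111, while the median 3′ UTR was 971 bases in the collagen genes and 817.5 bases in all genes. Col5a1 and Col4a3 each held 4 matches. The windows of 30 bases below, from NCBIM37, show the matches in capitals for genes that lead the results or differ in them.
Col1a1, chr11:94813841-94813870, plus strand: gaaggaatttcTGGTGCTatagaagctgag
Col3a1, chr1:45405816-45405845, plus strand: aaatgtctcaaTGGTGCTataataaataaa
Col4a1, chr8:11199750-11199779, minus strand: ccgtcacaacaTGGTGCTactcccccccct
Col4a2, chr8:11448348-11448377, plus strand: gaaggccacgtTGGTGCTtatccttctgta
Col2a1, chr15:97806101-97806130, minus strand: gtcctacacaaTGGTGCTattctgtgtcaa

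Of the 43 genes, 27 passed the filter of more than 1 RPM in at least 4 libraries and were tested. Of these, 20 were above 1 RPM in all 16 libraries. Col6a5 passed only through the knockout libraries, and Col20a1, Col8a2 and Col9a3 passed only through WT, so their differences were favoured by the filter and the counts below include them. The other 16 genes stayed near or below 1 RPM. Col4a3, Col4a4, Col6a6, Col9a1, Col19a1 and Col28a1 had at most 10 reads in every library. Col6a4, Col10a1, Col11a2, Col14a1, Col15a1, Col17a1, Col23a1, Col24a1, Col25a1 and Col4a6 reached between 17 and 42 reads in their highest library. Col4a3 and Col4a4, chains of the adult kidney basement membrane, and the partner chains Col9a1 and Col11a2 of the type IX and XI trimers were among these untested genes. Col9a1 held 0 to 8 reads over all libraries and Col11a2 held 1 to 42.

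Levels between genes were compared per kb of the longest annotated transcript. Col18a1, whose product is a proteoglycan of basement membranes and the source of endostatin, had the highest level in every group. It stood at 30.4 ± 5.81 RPM per kb in WT (SD, n = 8), while Dnmt1 KO reached 38.1 ± 4.87 and Dicer/Dnmt1 KO reached 51.5 ± 7.84 (n = 4 each). Col4a1, which encodes the main type IV chain, followed with 7.14 ± 1.77, 17.2 ± 1.89 and 16.5 ± 0.873 RPM per kb. Its partner Col4a2 came next over all libraries, with 3.29 ± 0.595, 7.79 ± 1.63 and 8.40 ± 1.54 RPM per kb. Col1a2, a chain of type I collagen, stood at 3.45 ± 0.687, 6.64 ± 0.888 and 7.94 ± 2.22 RPM per kb, which in no group differed from Col4a2 by more than the spread between libraries. With the length of all annotated exons in place of the longest transcript, the level of Col1a2 dropped to 1.52 RPM per kb in WT, while Col18a1, Col4a1 and Col4a2 kept their order. At the other end of the tested genes, Col6a5 was at 0.0783 RPM per kb in WT and Col22a1 at 0.122.

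**Figure D1:**
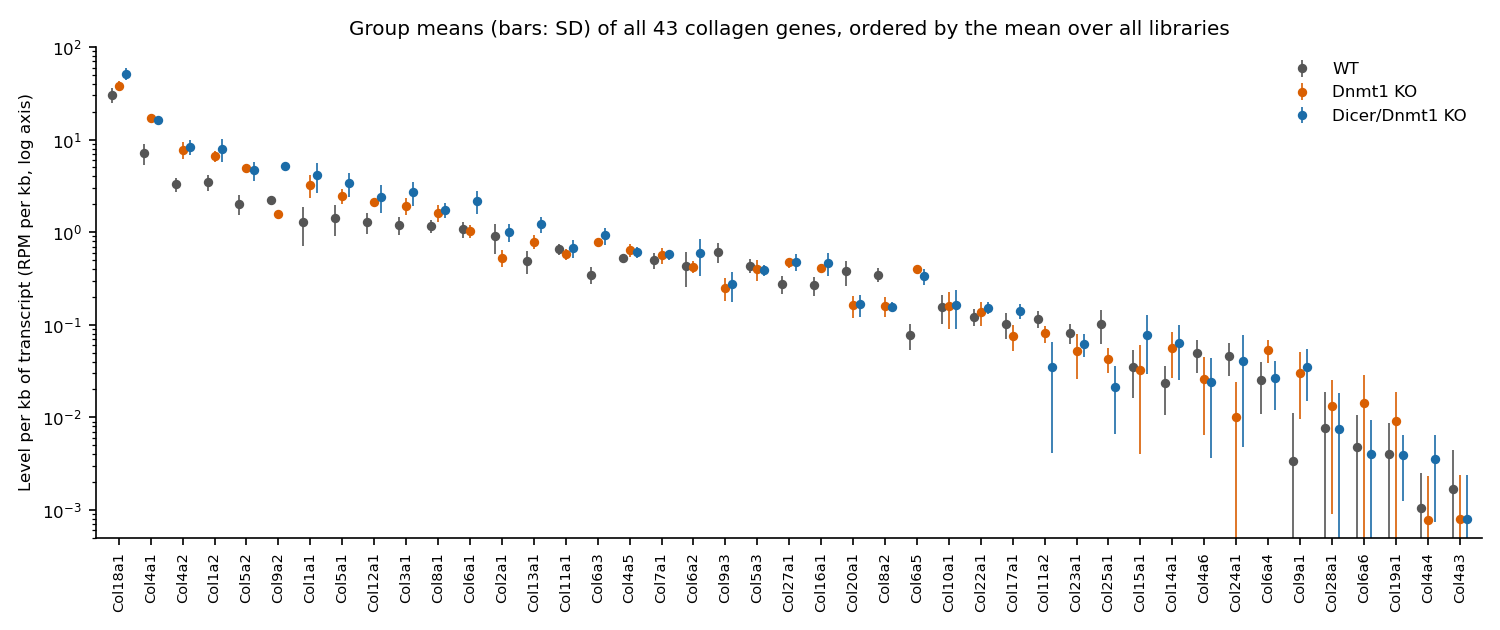
Level per kb of transcript (RPM per kb, log axis) of all 43 collagen genes in WT (n = 8), Dnmt1 KO (n = 4) and Dicer/Dnmt1 KO (n = 4), as group means with SD, ordered by the mean over all libraries. Bars that would reach 0 are shortened to stay above it. Col18a1, Col4a1 and Col4a2 lead the order, and Col4a3 and Col4a4 close it.

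All 43 genes together held 392 ± 56.6 RPM in WT, 613 ± 61.2 in Dnmt1 KO and 745 ± 122 in the double knockout. Every knockout library, with 537 to 884 RPM, lay above every WT library, which held 313 to 490 RPM. Col18a1 supplied 48.9% ± 4.43 of all collagen reads in WT, 39.3% ± 1.24 in Dnmt1 KO and 43.9% ± 0.757 in the double knockout. The type IV genes supplied 18.7% ± 4.34, 27.4% ± 1.19 and 22.7% ± 2.08 in the same order. These WT means pool unlike libraries. Col18a1 supplied 51.6% to 54.1% in WT numbers 1 and 2 and 44.0% to 46.3% in numbers 3 and 4. The double knockout libraries held 42.9% to 44.6%. Type IV genes supplied 12.9% to 17.8% in WT numbers 1 and 2 and 20.8% to 24.3% in numbers 3 and 4. In the double knockout they supplied 20.8% to 25.2%. The knockouts had only numbers 1 and 2. In bulk RNA, more cells that make collagen and more collagen RNA per cell cannot be told apart.

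The first comparison asked what loss of Dnmt1 alone did. In Dnmt1 KO against WT, 14 of the 27 tested collagen genes rose and 5 fell at an adjusted p under 0.05 (limma, moderated statistics, Benjamini-Hochberg over all 12892 tested genes). Of all tested genes, 23.5% were called higher and 17.5% lower. After A and B had been averaged, 8 collagen genes rose and 4 fell, beside 11% and 6.74% of all genes. Quantile normalization turned the balance of all genes to 2506 higher and 2907 lower, from 3030 and 2259, and left the collagen genes at 13 higher and 5 lower. The median change of the 27 genes was 0.47 on the log2 scale and that of all tested genes 0.04. Libraries of both groups did not overlap for 14 of the 27 genes, beside 23.2% of all tested genes.

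The second comparison asked what loss of both genes did. With both genes lost, 17 collagen genes rose and 3 fell, beside 31.9% of all tested genes called higher and 30.1% called lower. Among all genes of 4 to 8 kb, the length of most collagen transcripts, 44.8% were called higher. After averaging, 16 rose and 3 fell, beside 21.6% and 18.2% of all genes. The median change of the 27 genes was 0.80 and that of all genes 0.02. Libraries of both groups did not overlap for 17 of the 27 genes, beside 41.4% of all tested genes. Both comparisons use the same WT libraries, so the values against WT are given side by side and are not independent of each other.

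**Figure D2:**
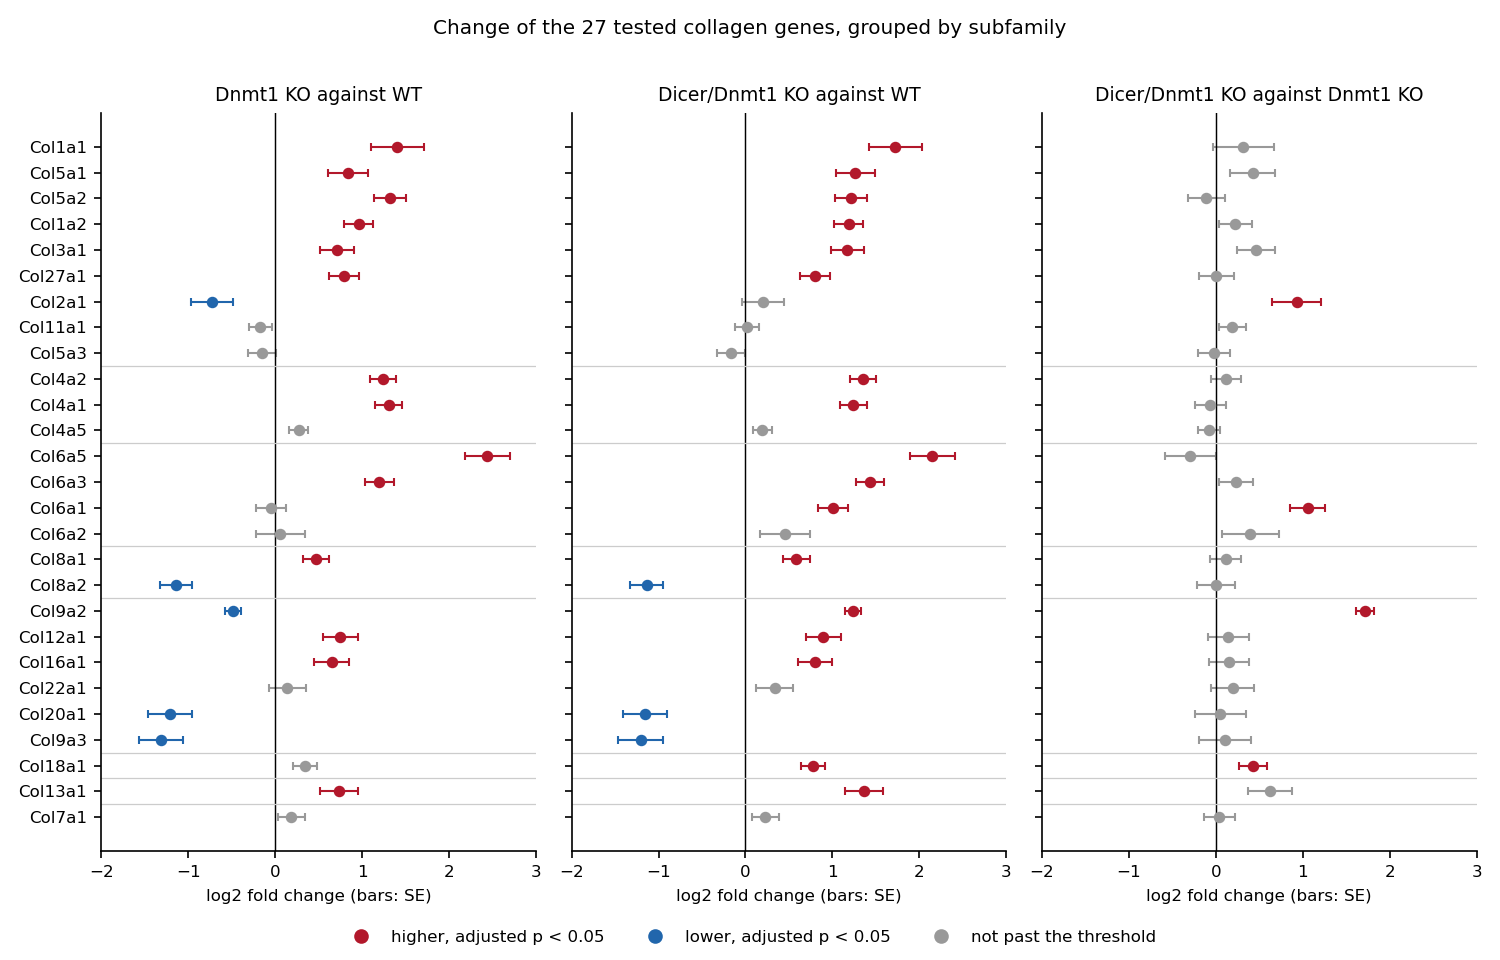
Log2 fold change with its SE for the 27 tested collagen genes in the 3 comparisons, with lines between subfamilies. Red points passed the test upward, blue points downward and grey points did not pass. Col6a5, which passed the filter only through the knockout libraries, has the highest value in both comparisons with WT. Col9a2 has the highest in Dicer/Dnmt1 KO against Dnmt1 KO.

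Among the type IV genes, Col4a1 and Col4a2 rose in both knockouts. They encode the chains of the ubiquitous type IV trimer and lie head to head on chromosome 8 (NCBIM37, Col4a1 at chr8:11198423-11312826 on the minus strand with 52 exons, Col4a2 at chr8:11312805-11449287 on the plus strand with 48 exons), so that their annotated first exons share 22 bases on opposite strands. Col4a1 was between 5.06 and 5.96 log2 RPM in WT (median 5.47). Within WT, it was at 5.06 to 5.38 in numbers 1 and 2 and at 5.56 to 5.96 in numbers 3 and 4. It was 6.74, 6.64, 6.95 and 6.97 in Dnmt1 KO libraries 1A, 1B, 2A and 2B, and 6.73, 6.87, 6.69 and 6.77 in the same libraries of Dicer/Dnmt1 KO. All knockout libraries thus lay above all WT libraries, and both knockouts overlapped. The rise was 1.30 ± 0.15 (log2, SE, adjusted p = 3.06e-06) in Dnmt1 KO and 1.24 ± 0.15 (adjusted p = 2.33e-06) in Dicer/Dnmt1 KO. With A and B averaged, adjusted p was 0.0031 and 0.0018.

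Col4a2 was between 4.08 and 4.80 log2 RPM in WT (median 4.33), at 5.46, 5.28, 5.91 and 5.86 in Dnmt1 KO and at 5.85, 6.05, 5.45 and 5.61 in Dicer/Dnmt1 KO, again with no overlap between WT and either knockout. It rose by 1.24 ± 0.15 (adjusted p = 4.43e-06) and by 1.35 ± 0.15 (adjusted p = 6.88e-07). The ratio of Col4a1 to Col4a2 per kb was 2.14 in WT, 2.24 in Dnmt1 KO and 1.98 in the double knockout. On the log2 scale this ratio had an SD of 0.15 to 0.21 within groups, and the 3 exact permutation tests of its difference gave p of 0.26 to 0.53. Col4a5, the X-linked chain found in kidney basement membrane, did not pass the test in either comparison.

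Of the 9 tested fibrillar genes, 6 rose and 1 fell in Dnmt1 KO, and 6 rose in the double knockout. Col1a1 and Col1a2 encode the chains of type I collagen, the main collagen of bone, skin and tendon. Col1a1 (chr11:94797538-94814356, plus strand, 51 exons, with 109 exonic bases shared with Gm17329 on the opposite strand) was between 1.64 and 3.90 log2 RPM in WT (median 2.86), at 4.02, 3.74, 4.56 and 4.57 in Dnmt1 KO and at 4.92, 5.06, 4.19 and 3.99 in Dicer/Dnmt1 KO. Its highest WT library was 1A, which lay above Dnmt1 KO 1B, and its lowest was 4B, so the WT group spread over more than 2 log2 units. Col1a1 rose by 1.40 ± 0.30 (adjusted p = 0.00131) and 1.72 ± 0.30 (adjusted p = 0.000113).

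Col1a2 (chr6:4454814-4491543, plus strand, 52 exons) was tighter, with 3.87 to 4.62 log2 RPM in WT (median 4.13), 5.14, 4.85, 5.26 and 5.30 in Dnmt1 KO and 5.71, 5.73, 5.07 and 4.95 in Dicer/Dnmt1 KO. No knockout library reached down to the WT range. Its rise was 0.96 ± 0.17 (adjusted p = 0.000181) in Dnmt1 KO and 1.19 ± 0.17 (adjusted p = 9.84e-06) in Dicer/Dnmt1 KO. Its annotated 3′ UTR held no miR-29 seed match, and that of Col1a1 held 1.

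Type V collagen starts and limits fibril growth. Its chain Col5a2 (chr1:45431166-45560127, minus strand, 54 exons) was between 2.98 and 4.03 log2 RPM in WT (median 3.85), at 5.11, 5.08, 5.07 and 4.84 in Dnmt1 KO and at 5.29, 5.09, 4.70 and 4.59 in Dicer/Dnmt1 KO, with both knockouts clear of WT. It rose by 1.32 ± 0.18 (adjusted p = 2.07e-05) and 1.22 ± 0.18 (adjusted p = 2.25e-05). Col5a1 (chr2:27741945-27895034, plus strand, 66 exons, with 99 and 113 exonic bases shared with the opposite-strand genes 2810430I11Rik and Gm13372) was between 2.87 and 4.44 in WT (median 3.49), at 4.08, 4.15, 4.62 and 4.55 in Dnmt1 KO and at 4.97, 5.27, 4.46 and 4.39 in Dicer/Dnmt1 KO. WT 1A, with 4.44, reached into both knockout groups and the other WT libraries did not. Col5a1 rose by 0.84 ± 0.23 in Dnmt1 KO (adjusted p = 0.00646, or 0.078 with A and B averaged) and by 1.26 ± 0.23 in Dicer/Dnmt1 KO (adjusted p = 0.000127).

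Col3a1, the chain of type III collagen of elastic tissues, rose by 0.71 ± 0.19 in Dnmt1 KO, where the call was lost after averaging (adjusted p = 0.083), and by 1.17 ± 0.19 in Dicer/Dnmt1 KO. Col27a1, a fibrillar chain of cartilage, rose by 0.79 ± 0.17 and 0.80 ± 0.17. Col11a1 and Col5a3 did not pass the test in either comparison with WT. Col2a1, the chain of cartilage collagen, went the other way in Dnmt1 KO and is described with the comparison of both knockouts.

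**Figure D3:**
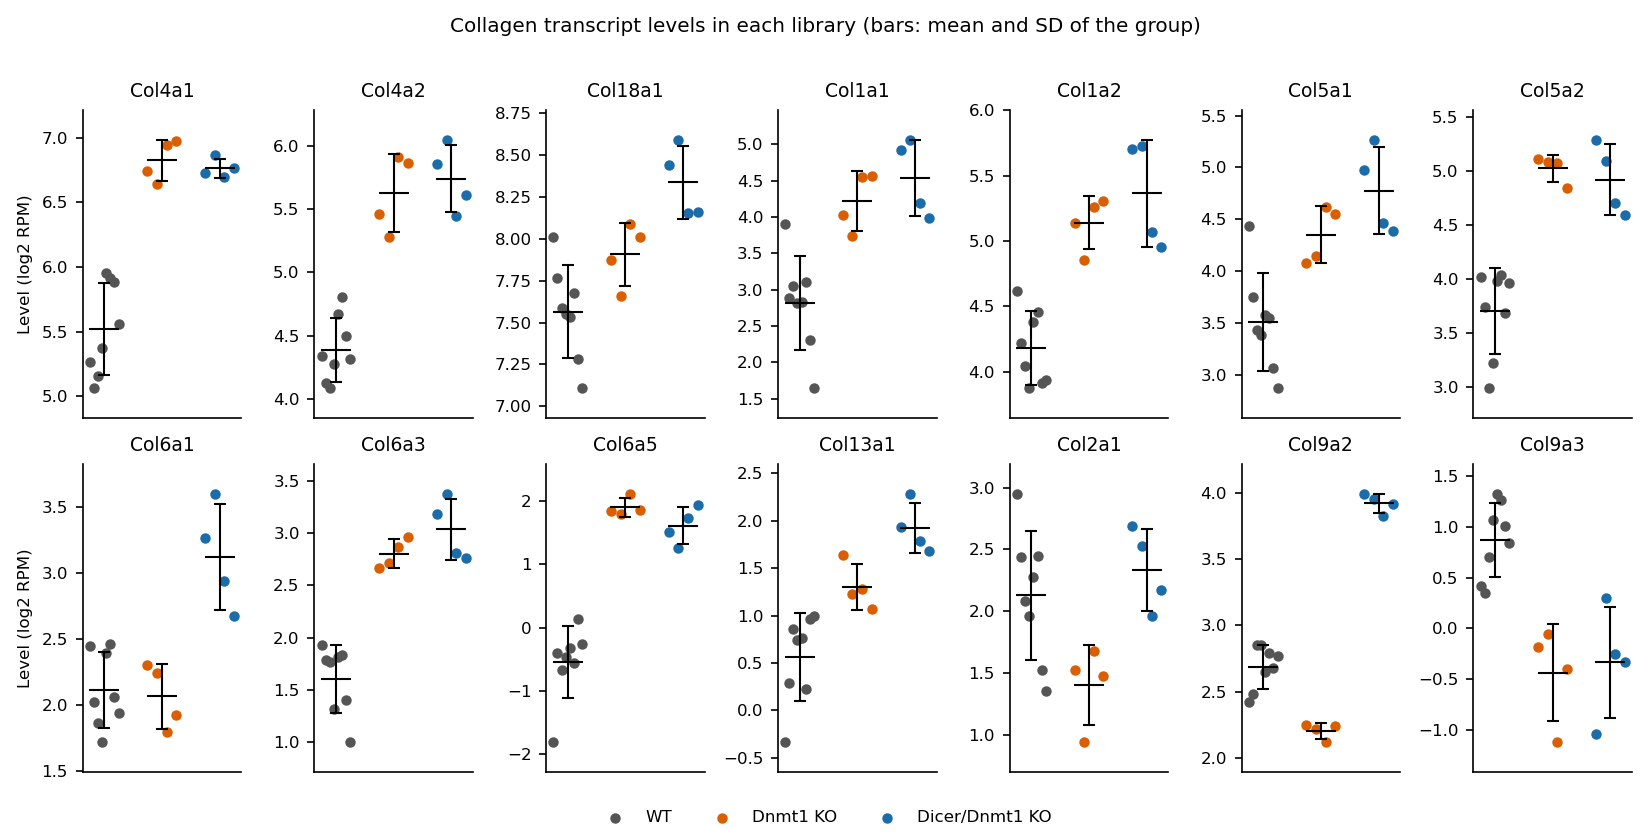
Level (log2 RPM) of 14 collagen genes in each library of WT (n = 8), Dnmt1 KO (n = 4) and Dicer/Dnmt1 KO (n = 4), with group means and SD. Each panel has its own axis. Col6a5, which passed the filter only through the knockout libraries, stands above WT in all 8 of them. Col9a2 is below WT in Dnmt1 KO and above it in Dicer/Dnmt1 KO.

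Of the 4 tested type VI genes, 2 rose in Dnmt1 KO and 3 in the double knockout. Col6a5, an alpha 3-like chain of type VI collagen (chr9:105758400-105862974, minus strand, 42 exons), had the largest change of all tested collagen genes. It passed the filter only through the knockout libraries, so its rise was favoured by the filter. It was between -1.81 and 0.14 log2 RPM in WT (median -0.43), that is 9 to 51 reads. It was at 1.84, 1.79, 2.12 and 1.85 in Dnmt1 KO and at 1.503, 1.26, 1.73 and 1.94 in Dicer/Dnmt1 KO, with 76 to 161 reads in these 8 libraries. Both knockouts lay above WT. The rise was 5.44-fold (log2 2.44 ± 0.25, adjusted p = 8.74e-07) in Dnmt1 KO and 4.44-fold (log2 2.15 ± 0.25, adjusted p = 1.62e-06) in Dicer/Dnmt1 KO. With A and B averaged, adjusted p was 0.00065 and 0.00058.

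Col6a3, which extends the type VI trimer (chr1:92663435-92740529, minus strand, 41 exons), was between 1.00 and 1.93 log2 RPM in WT (median 1.77), at 2.67, 2.72, 2.87 and 2.96 in Dnmt1 KO and at 3.18, 3.38, 2.81 and 2.77 in Dicer/Dnmt1 KO. Every knockout library was above every WT library, and Col6a3 rose by 1.20 ± 0.17 (adjusted p = 1.99e-05) and 1.43 ± 0.17 (adjusted p = 1.19e-06). Col6a1, a chain of every type VI trimer (chr10:76171537-76188913, minus strand, 35 exons), was between 1.72 and 2.46 in WT (median 2.04) and at 2.30, 2.24, 1.80 and 1.92 in Dnmt1 KO, inside the WT range. The per-kb ratio of Col6a3 to Col6a1 was 0.32 in WT and 0.76 in Dnmt1 KO, a difference in log2 ratio that gave the smallest p the 12 libraries allow when each is taken as independent (exact permutation test, 2-sided, p = 0.0020, adjusted p = 0.0085 over 21 ratio tests). The ratio was 0.43 in Dicer/Dnmt1 KO (exact permutation test against WT, p = 0.018, adjusted p = 0.064). With A and B averaged, the 4 WT values against 2 cannot give a p below 0.067, and the exact permutation tests gave 0.067 for Dnmt1 KO and 0.13 for the double knockout. Col6a2 did not pass the test in any comparison.

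Outside these types, Col13a1, a transmembrane collagen of cell adhesion sites (chr10:61300984-61441856, minus strand, 41 exons), was between -0.34 and 1.00 log2 RPM in WT (median 0.75), at 1.63, 1.22, 1.28 and 1.06 in Dnmt1 KO and at 1.93, 2.29, 1.79 and 1.68 in Dicer/Dnmt1 KO. The lowest Dnmt1 KO library lay just above the highest WT library, and all of Dicer/Dnmt1 KO lay above both other groups. It rose by 0.74 ± 0.22 in Dnmt1 KO (adjusted p = 0.0118, or 0.095 after averaging) and by 1.36 ± 0.22 in Dicer/Dnmt1 KO (adjusted p = 4.45e-05). Of the 6 tested FACIT genes, 2 rose and 3 fell in Dnmt1 KO, while 3 rose and 2 fell in the double knockout. Among them Col12a1 and Col16a1 rose by 0.75 ± 0.20 and 0.65 ± 0.20 in Dnmt1 KO, both calls being lost after averaging (adjusted p = 0.081 and 0.14), and by 0.89 ± 0.20 and 0.80 ± 0.20 in Dicer/Dnmt1 KO. Col8a1, a short chain collagen of endothelial and corneal matrix, rose by 0.47 ± 0.15 and 0.58 ± 0.15, and both calls were lost after averaging (adjusted p = 0.16 and 0.051). The Col8a1 call in Dnmt1 KO was also lost without library 1A (adjusted p = 0.058) or 1B (0.097). Col7a1, the anchoring fibril chain, and Col22a1 did not pass the test in either comparison.

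The genes Col9a3, Col20a1 and Col8a2 fell in both knockouts. They passed the filter only through WT, so these falls were favoured by it. No other collagen gene was called lower in Dicer/Dnmt1 KO against WT. Col9a3, a type IX chain (chr2:180332495-180356894, plus strand, 33 exons), was between 0.35 and 1.33 log2 RPM in WT (median 0.92). It was at -0.18, -0.06, -1.13 and -0.40 in Dnmt1 KO and at -1.04, 0.29, -0.26 and -0.33 in Dicer/Dnmt1 KO. All 8 knockout libraries, with 17 to 40 reads, were below the lowest WT library. It fell by 1.31 on the log2 scale (SE 0.26, adjusted p = 0.000566) and by 1.21 (SE 0.26, adjusted p = 0.000631), and 234 of its exonic bases overlap Tcfl5 on the opposite strand. Col20a1, a FACIT gene on the same chromosome, fell by 1.21 (SE 0.25) and 1.15 (SE 0.25). Col8a2, the second type VIII chain, fell by 1.14 (SE 0.19) in both comparisons, and the per-kb ratio of Col8a1 to Col8a2 moved from 3.36 in WT to 10.2 in Dnmt1 KO and 11.1 in the double knockout.

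Col18a1, the most abundant collagen transcript (chr10:76514923-76629293, minus strand, 41 exons), was between 7.11 and 8.01 log2 RPM in WT (median 7.57), at 7.87, 7.66, 8.09 and 8.01 in Dnmt1 KO and at 8.44, 8.59, 8.15 and 8.16 in Dicer/Dnmt1 KO. Dnmt1 KO overlapped WT, and Dicer/Dnmt1 KO lay above both. The change was 0.34 ± 0.14 in Dnmt1 KO (adjusted p = 0.055) and 0.77 ± 0.14 in Dicer/Dnmt1 KO (adjusted p = 0.000124). The first value passed the threshold without WT 1A (adjusted p = 0.013), without WT 1B (0.047) or without Dnmt1 KO 1B (0.034).

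The last comparison asked what loss of Dicer added to loss of Dnmt1. Per the study's methods, CRISPR-edited cells were grown from single colonies. Loss of Dicer and differences between clones therefore cannot be told apart here. In Dicer/Dnmt1 KO against Dnmt1 KO, 4 of the 27 tested collagen genes rose and none fell, beside 16.9% of all tested genes called higher and 19.4% called lower. At an unadjusted p under 0.05, 5 rose, Col13a1 being the addition, and none fell. The share of all tested genes at that looser threshold was not counted, and it cannot be smaller than the shares above. After averaging, 2 rose and none fell, beside 5.28% and 4.22% of all genes. The 23 genes that did not pass the test had changes from -0.29 to 0.62 on the log2 scale. Libraries of both knockouts did not overlap for 5 of the 27 genes, beside 43.2% of all tested genes.

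Col9a2, a type IX chain (chr4:120711990-120727927, plus strand, 32 exons), changed most. It was between 2.42 and 2.86 log2 RPM in WT (median 2.72), at 2.25, 2.21, 2.12 and 2.24 in Dnmt1 KO and at 3.99, 3.96, 3.82 and 3.92 in Dicer/Dnmt1 KO. The 3 groups did not overlap, with Dnmt1 KO below WT and Dicer/Dnmt1 KO above it. The gene fell by 0.48 in Dnmt1 KO (SE 0.09, adjusted p = 0.000433), rose by 1.24 ± 0.09 in Dicer/Dnmt1 KO against WT (adjusted p = 6.04e-09) and rose 3.29-fold from Dnmt1 KO to Dicer/Dnmt1 KO (log2 1.72 ± 0.11, adjusted p = 9.79e-09). Its partner chain Col9a3, which passed the filter only through WT, fell in both knockouts. The per-kb ratio of Col9a2 to Col9a3 was 3.67 in WT, 6.52 in Dnmt1 KO and 19.9 in the double knockout.

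Col6a1 was next, with 3.27, 3.61, 2.94 and 2.68 log2 RPM in Dicer/Dnmt1 KO against 2.30, 2.24, 1.80 and 1.92 in Dnmt1 KO. These values did not overlap each other, and the Dicer/Dnmt1 KO values were above WT too. The rise over Dnmt1 KO was 1.06 ± 0.20 (adjusted p = 0.000645) and that over WT 1.01 ± 0.18 (adjusted p = 9.48e-05). Both Col9a2 and Col6a1 kept their calls against Dnmt1 KO after averaging (adjusted p = 0.0021 and 0.041).

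Col2a1 (chr15:97806033-97835155, minus strand, 54 exons) was between 1.36 and 2.95 log2 RPM in WT (median 2.18), at 1.53, 0.94, 1.68 and 1.48 in Dnmt1 KO and at 2.69, 2.53, 1.96 and 2.17 in Dicer/Dnmt1 KO. The knockout groups did not overlap each other, and both overlapped WT. The gene fell by 0.72 in Dnmt1 KO against WT (SE 0.24, adjusted p = 0.0235) and rose by 0.93 ± 0.28 from Dnmt1 KO to Dicer/Dnmt1 KO (adjusted p = 0.015). Both calls were lost after averaging (adjusted p = 0.14 and 0.13), and the first also without Dnmt1 KO 1B (adjusted p = 0.097). Col18a1 rose by 0.43 ± 0.16 from Dnmt1 KO to Dicer/Dnmt1 KO (adjusted p = 0.043, or 0.24 after averaging). Without Dnmt1 KO 1B or without Dicer/Dnmt1 KO 1A, 2 collagen genes were called higher, because Col18a1 (adjusted p = 0.13 and 0.10) and Col2a1 (adjusted p = 0.055 and 0.052) then missed the threshold. The Col18a1 call was lost in 7 of the 16 fits that left out 1 library.

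The miR-29 seed matches were set beside these changes. Of the 17 tested collagen genes with a match, 1 (Col2a1) was called higher between both knockouts, and the median change of the 17 was 0.15. Of the 10 without a match, 3 (Col9a2, Col6a1 and Col18a1) were called higher, with a median of 0.19. Over all tested genes with a 3′ UTR the median was 0.07 for 1817 genes with a match and -0.02 for the rest, and 20.7% and 16.6% were called higher. In Dnmt1 KO against WT, where Dicer was intact, 10 of the 17 genes with a match and 4 of the 10 without were called higher, beside 25.7% and 23.1% of all tested genes with and without one. In the double knockout against WT the counts were 10 of 17 and 7 of 10, beside 39.4% and 30.7%. A match is a stretch of letters and not a measured site, and levels of miR-29 were not analysed here.

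**Figure D4:**
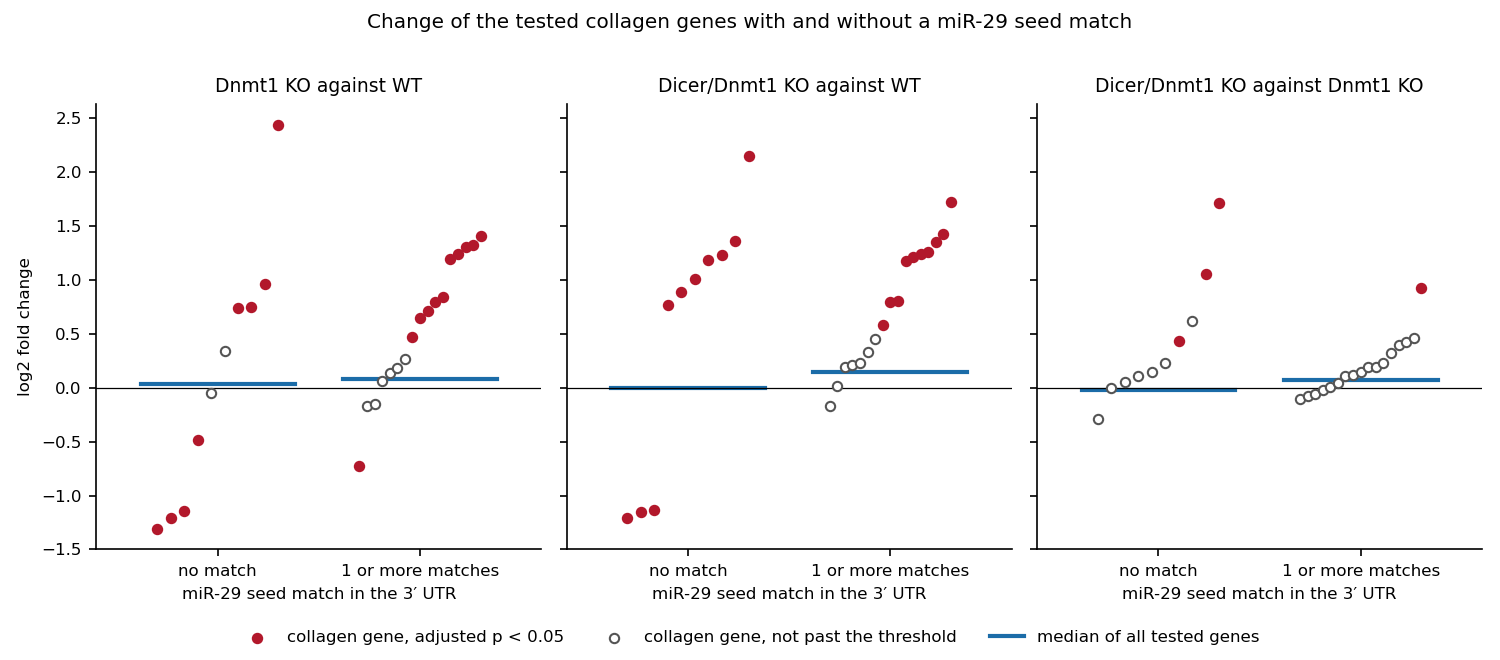
Log2 fold change of the 27 tested collagen genes, split by whether the annotated 3′ UTR holds a miR-29 seed match (17 genes) or not (10 genes), in the 3 comparisons. Filled points passed the test and lines give the median of all tested genes with and without a match. In Dicer/Dnmt1 KO against Dnmt1 KO (right), 1 gene with a match passed and 3 without did.

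For comparison, the most abundant microRNA family of ESCs, the miR-290 cluster, has a seed whose match reads AGCACTT.
miR-294-3p: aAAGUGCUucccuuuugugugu
This match was present in 6 of the 43 collagen genes (13.95%) and in 12.9% of all genes with a 3′ UTR. The tested collagen genes with it were Col4a2, Col18a1 and Col20a1, of which Col18a1 was called higher in Dicer/Dnmt1 KO against Dnmt1 KO. Of all 1982 tested genes with the match, 33.8% were called higher in that comparison, beside 14.02% of those without.

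DNMT1 acts on CpG, so the 250 bases before the annotated start of each gene were searched for CG. The tested collagen genes held a median of 8 CG, from 0 in Col3a1 to 31 in Col4a1, and all tested genes a median of 15. A count of 10 or more was found in 13 of the 27 tested collagen genes (48.1%) and in 69.8% of all tested genes. Genes that rose in Dnmt1 KO stood at both ends of this range, since Col4a2 held 26 CG, Col5a1 28, Col5a2 1 and Col1a2 2. Col6a5, which passed the filter only through the knockout libraries, changed most of the tested collagen genes in Dnmt1 KO against WT. Col9a2 changed most in Dicer/Dnmt1 KO against Dnmt1 KO. The windows before both genes are shown with CG in capitals (NCBIM37). They hold 8 and 2 CG.
Col6a5, chr9:105862975-105863224, minus strand: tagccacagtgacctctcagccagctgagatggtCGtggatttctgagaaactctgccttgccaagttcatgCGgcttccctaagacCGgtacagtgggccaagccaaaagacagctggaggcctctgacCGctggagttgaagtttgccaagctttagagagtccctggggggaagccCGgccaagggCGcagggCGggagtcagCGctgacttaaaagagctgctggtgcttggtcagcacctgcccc
Col9a2, chr4:120711740-120711989, plus strand: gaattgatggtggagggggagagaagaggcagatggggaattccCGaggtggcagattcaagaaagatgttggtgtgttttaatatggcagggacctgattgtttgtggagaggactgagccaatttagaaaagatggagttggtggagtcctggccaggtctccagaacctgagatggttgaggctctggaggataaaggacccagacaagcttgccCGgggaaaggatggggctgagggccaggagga

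Genes that make, cut, join and sense collagen were counted beside the chains, against the shares of all tested genes given above (23.5% higher and 17.5% lower in Dnmt1 KO, 31.9% and 30.1% with both genes lost). Of 17 tested genes for modification and folding, 8 rose and none fell in each knockout against WT, or 4 and 7 rose after averaging. Glt25d2, which adds galactose to hydroxylysine, rose by 4.00 ± 0.36 and 4.17 ± 0.36, from -2.60 ± 0.82 log2 RPM in WT (SD, n = 8). This gene passed the filter only through the knockout libraries, so its rise was favoured by the filter. Crtap, a subunit of the prolyl 3-hydroxylase complex, rose by 0.67 ± 0.09 and 1.09 ± 0.09, and Leprel2, a prolyl 3-hydroxylase, by 0.60 ± 0.15 and 0.75 ± 0.15. The collagen chaperone gene Serpinh1 rose by 0.63 ± 0.14 in Dnmt1 KO. Averaging ended the Dnmt1 KO calls of Leprel2 (adjusted p = 0.066) and Serpinh1 (adjusted p = 0.052). Of 6 tested genes for procollagen cleavage, 3 rose in Dnmt1 KO and 6 in the double knockout, or 2 and 5 after averaging. Among them Tll1, a procollagen C-proteinase, rose by 0.82 ± 0.14 and 1.44 ± 0.14, and Pcolce, which enhances C-proteinase activity, by 1.13 ± 0.11 and 0.92 ± 0.11.

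Of 6 tested cross-linking genes 3 rose in each knockout, or 2 in each after averaging, and Lox, the lysyl oxidase of type I collagen fibrils, rose by 1.30 ± 0.15 and 1.15 ± 0.15. Of 7 tested collagen receptor genes, 4 rose in Dnmt1 KO, and 5 rose and 1 fell in Dicer/Dnmt1 KO, or 3 rose, and 4 rose and 1 fell, after averaging. The receptor genes Mrc2, for collagen uptake, and Ddr2, a collagen-binding kinase, rose by 1.32 ± 0.19 and 0.97 ± 0.20 in Dnmt1 KO and by 1.603 ± 0.19 and 1.31 ± 0.20 in Dicer/Dnmt1 KO. Itga1, a collagen-binding integrin, fell by 0.77 (SE 0.23) in Dicer/Dnmt1 KO. Of 6 tested genes for collagen breakdown and its inhibitors, 5 rose and 1 fell in each, or 4 and 5 rose and 1 fell after averaging. The one that fell was Mmp2, a gelatinase, by 0.79 (SE 0.13) and 1.19 (SE 0.13), while the inhibitor genes Timp3 and Timp2 rose by 1.27 ± 0.15 and 1.00 ± 0.14 in Dnmt1 KO. Of 7 tested genes for collagen secretion, 2 rose in Dnmt1 KO, and 2 rose and 1 fell in Dicer/Dnmt1 KO, or 1 rose in each after averaging, which is near the share of all genes.

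Of 10 basement membrane partners of type IV collagen, 5 rose in Dnmt1 KO, 6 in Dicer/Dnmt1 KO and none fell, or 2 and 3 rose after averaging. Of all tested genes, 23.5% and 31.9% were called higher, or 11% and 21.6% after averaging. Nid1, which links laminin to type IV collagen, rose by 1.52 ± 0.12 in Dicer/Dnmt1 KO and by 1.17 ± 0.14 from Dnmt1 KO to Dicer/Dnmt1 KO. Between both knockouts, 2 of the 10 partners rose and none fell, beside 16.9% and 19.4% of all tested genes. Of the lists above, 2 genes rose and 3 fell for modification and folding, 3 rose for cleavage, and 1 rose and 2 fell for breakdown. Also, 1 cross-linking gene and 1 receptor gene fell, and no secretion gene was called. After averaging, the calls left were 1 partner that rose and 1 receptor gene that fell. Lama1, a laminin chain of the early embryo, rose by 0.96 ± 0.20 in Dnmt1 KO, and Sparc, a collagen-binding glycoprotein, by 0.57 ± 0.08 and 0.62 ± 0.08.

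Markers of 2 other cell types that make collagen moved in the same samples. Of all tested genes, 23.5% were called higher and 17.5% lower in Dnmt1 KO, and 31.9% and 30.1% in Dicer/Dnmt1 KO. After averaging these shares were 11% and 6.74%, and 21.6% and 18.2%. Of 14 tested fibroblast markers (18 listed, none a collagen), 8 rose and 1 fell in Dnmt1 KO and 10 rose and 1 fell in Dicer/Dnmt1 KO. After averaging, 7 rose and none fell in Dnmt1 KO, and 7 rose and 1 fell in Dicer/Dnmt1 KO. None of these markers was called between both knockouts. The summed level of the 18 was 409 to 964 RPM in WT, 665 to 753 in Dnmt1 KO and 724 to 1176 in the double knockout. Of the 18, only Lum and Fap stayed at or under 10 reads. The highest sum in WT was in 1A and the lowest in 4B, as for Col1a1 and Col5a1, and Dicer/Dnmt1 KO 1A and 1B stood at 1109 and 1176 RPM against 749 and 724 RPM in 2A and 2B. The highest single levels among these markers were those of Fn1, Thbs1 and Vim. Fn1 changed by -0.15 ± 0.31 in Dnmt1 KO and 0.60 ± 0.31 in the double knockout, and Thbs1 by 0.20 ± 0.19 and 0.37 ± 0.19, and neither passed the test. Vim, an intermediate filament gene, rose by 0.93 ± 0.11 and 1.01 ± 0.11, and Acta2, a smooth muscle actin gene, by 1.29 ± 0.18 and 1.33 ± 0.18. Of 16 primitive and parietal endoderm markers (none a collagen, Lama1 and Sparc among them), 14 rose in Dnmt1 KO, and 9 rose and 1 fell in Dicer/Dnmt1 KO, or 10 and 4 rose after averaging. Between both knockouts, 6 of the 16 fell and none rose, or 2 fell after averaging. Of all tested genes, 19.4% were called lower there, or 4.22% after averaging. The summed level of the 16 was 295 to 424 RPM in WT, 526 to 683 in Dnmt1 KO and 447 to 511 in the double knockout. The part of either marker list in the collagen changes was not tested. Cartilage markers summed to 7.50 to 12.6 RPM over all libraries, and Chad stayed at or under 10 reads.

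**Figure D5:**
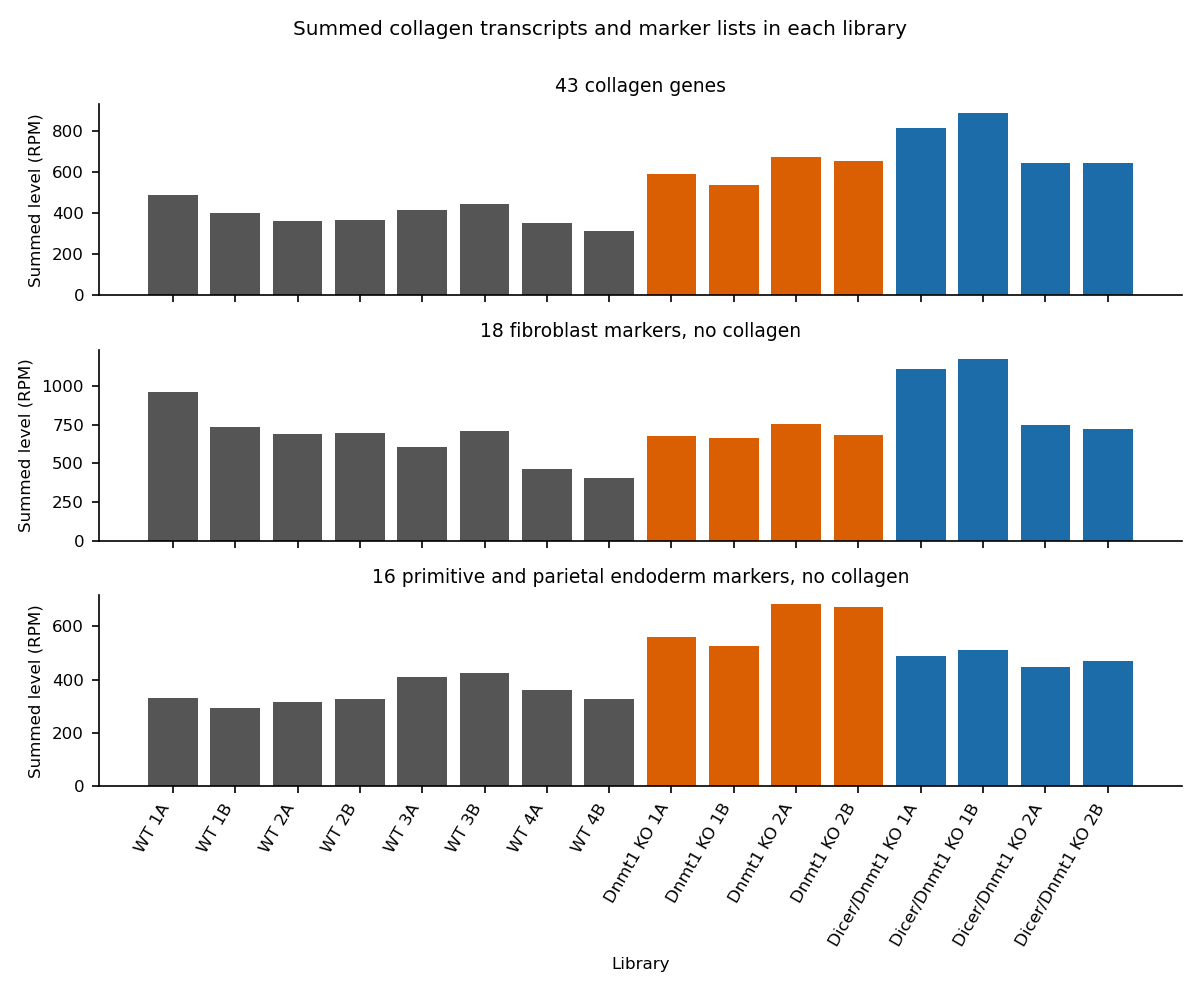
Summed level (RPM) of the 43 collagen genes, of 18 fibroblast markers and of 16 primitive and parietal endoderm markers in each of the 16 libraries, coloured by genotype as grey (WT), orange (Dnmt1 KO) and blue (Dicer/Dnmt1 KO). The collagen sum is 313 to 490 RPM in WT and 537 to 884 RPM in the knockouts.

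Transcript length also moved with the changes in Dicer/Dnmt1 KO. The tested collagen transcripts had a median length of 6.12 kb against 3.14 kb for all tested genes. When the double knockout was set against WT, all genes had a median change of -0.29 under 2 kb, 0.23 from 4 to 8 kb and 0.49 at 8 kb or more, and the 18 collagen genes from 4 to 8 kb had a median of 0.79. In that comparison 44.8% of all genes from 4 to 8 kb and 59.7% of those at 8 kb or more were called higher, and so were 11 of the 18 and 4 of the 6 collagen genes of these lengths. After the trend with length had been removed, 15 collagen genes were called higher and 5 lower, and the median change of the tested collagen genes was 0.44. Of the 12855 genes in that fit, 3757 were called higher and 3992 lower, with a median change of -0.011. Between both knockouts the same step left Col9a2, Col6a1 and Col2a1 higher, with changes of 1.75, 0.99 and 0.78, and Col18a1 at 0.21 (adjusted p = 0.097). There the median change of the 27 collagen genes went from 0.15 to -0.036. Of all 12855 genes, 2310 were called higher and 2531 lower.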

How the data were processed

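Total RNA of mouse ESCs had been depleted of ribosomal RNA and sequenced by the authors. Per the labels and the study's methods, reads were trimmed with Trim Galore 0.3.5 and mapped with TopHat2 2.0.11 to NCBIM37 (the labels also list GRCm38), reads of low mapping quality were dropped, and the authors deposited log2 RPM per gene, computed in SeqMonk. Whether counting used strand is not given in the sources used here. A gene without reads had been written as 0.9 read, and values came out as whole reads, within 0.1 read, for at least 99.99% of genes. Columns of 35 other samples were not used.

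Genes above 1 RPM in at least 4 of the 16 libraries were tested in 1 model over the 3 groups with limma 3.58.1 (R 4.3.3), with Benjamini-Hochberg adjustment over all 12892 tested genes and a threshold of 0.05. Chain ratios were tested with exact 2-sided permutation tests, in which 4 against 4 libraries cannot go below 0.029. No library was imputed or dropped. The labels do not say whether libraries came from separate cultures, so p-values measure the spread between these libraries, which may be partly technical. Totals of 31.5 to 52.5 M reads limit low genes, and the floor of 3 reads covers counting error only. Lengths, exons and UTRs came from an annotation in which all 43 genes had identical coordinates. Members and gene lists were chosen with earlier results of these data known. Values in every library are given for the 6 tested members with the largest called change in each comparison and the 4 with the highest level per kb. From each other list, at most 4 called genes per comparison are named by size of change. Fn1, Thbs1, Vim and Acta2 were named after their values were seen, and chain ratios were also tested with A and B averaged, an alternative chosen after seeing the data. Filters, scaling, pseudocounts, pairing, averaging of A and B, subsets of libraries and the fold threshold were varied.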

Additional observations from a re-analysis of the deposited data

Results flagged for a closer look

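In a group of 4 to 10 libraries, the highest or lowest library was compared with its neighbour by Dixon's criterion for each tested collagen gene. It picked out 3 of 81 groups (3.7%), while chance alone picks out about 1 in 20. Col6a5 was at -1.81 log2 RPM in WT 1A, and the next lowest WT library was at -0.67. Col22a1, a FACIT gene of tissue junctions, was at -0.68 in WT 4B, and the next lowest was at -0.05. Col5a2 was at 4.84 in Dnmt1 KO 2B, and the other 3 libraries of that group were between 5.07 and 5.11. The Col6a5 and Col5a2 calls against WT held without these libraries.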

How the results depend on the processing

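Of 47 results on single collagen genes, 23 kept their call and direction under every alternative, and 90 counts of called genes stayed within 1.5 times the main count, against 18 that did not, with all libraries or planned subsets. In Dnmt1 KO against WT, the 14 collagen genes called higher became 8 with A and B averaged, 6 with letter A only, 8 with letter B only and 6 with a change of at least 2-fold. Over all 12892 tested genes, the 3030 called higher became 1419, 1136, 1000 and 653 in the same order. The 5 called lower became 2 with a filter of 4 RPM, 3 with letter A only, 1 with letter B only and 3 with the 2-fold minimum. All genes called lower went from 2259 of 12892 to 1836 of 10372 with that filter, and to 697, 610 and 248 in the other settings. In Dicer/Dnmt1 KO against WT, the 3 called lower became 5 without a filter, 0 with the filter of 4 RPM, 5 with the length trend removed and 1 with letter B only. All genes called lower went from 3877 of 12892 to 4102 of 21545, 3374 of 10372, 3992 of 12855 and 2271 of 12892 in the same order. In Dicer/Dnmt1 KO against Dnmt1 KO, the 4 called higher became 2 with A and B averaged, 2 with the correlation within a number estimated, 2 with letter A only, 1 with letter B only and 2 with the 2-fold minimum, and the 0 called lower became 1 without a filter. Over all 12892 tested genes, the 2184 called higher became 681, 1015, 541, 400 and 382 in the same order. All genes called lower went from 2498 to 2424 of 21545 without a filter. Filters and single letters change the number of genes or libraries tested, and the cause of the other shifts was not tested.

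Leaving out 1 library at a time gave 13 to 15 higher and 4 to 5 lower for Dnmt1 KO against WT, 17 to 18 higher and 3 lower for Dicer/Dnmt1 KO against WT, and 2 to 5 higher and 0 lower for Dicer/Dnmt1 KO against Dnmt1 KO. The lowest value of the last range came without Dnmt1 KO 1B or without Dicer/Dnmt1 KO 1A. For genes that did not pass the test in Dicer/Dnmt1 KO against Dnmt1 KO, the sign of a small change could turn. Col4a1 went from -0.06 to 0.021 with quantile normalization and 0.011 with letter B only, and Col4a2 went from 0.11 to -0.11 with the length trend removed, -0.035 with letter A only and -0.0033 without Dnmt1 KO 1B (range 0.21 to -0.0033 with 1 library left out).

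With the replicate number as a block, the counts higher and lower were 14 and 5, 17 and 3, and 6 and 0 in the 3 comparisons, and with number and letter together they were 13 and 5, 17 and 3, and 5 and 0. Of all 12892 tested genes, the counts with number as a block were 3675 and 2866, 4021 and 3807, and 3146 and 3544. Number and letter together gave 3223 and 2438, 3729 and 3393, and 2776 and 3088 of all genes. Correlations of the deviations of libraries with the same label were -0.42 to 0.37, so the labels were not taken to pair the libraries. Low read numbers limit Col6a5, Col8a2, Col9a3, Col20a1 and the 16 untested genes.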
